A study of Sus scrofa with 10 samples.

Results

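The immediate early genes FOS, FOSB, JUNB, EGR1, IER2, ATF3 and DUSP1 were followed through droplet-based single-cell RNA sequencing of the pig (Sus scrofa) medial entorhinal cortex (MEC), the part of the cortex that links the hippocampus with the neocortex. The 7 genes were taken by name and all of them were found among the 22452 genes of the count files, which hold 28229 cells in 10 libraries. Whole cells came from fresh tissue digested with papain at embryonic day 50 (E50_1, pooled from 3 brains), embryonic day 60 (E60_1 and E60_2 from 1 brain each, E60_3 from 2 brains), embryonic day 70 (E70_1, E70_2 and E70_3) and the adult brain (Adult_1, 1 brain). Nuclei came from snap-frozen tissue that was homogenised in the cold and sorted with the DNA dye 7-AAD, from 1 brain at E70 (E70_nc) and 1 adult brain (Adult_nc). The study's methods name adult sows as the source of the adult libraries while its results give them as P75, so the age of these animals is not settled here. The animals carried no transgene and received no treatment that the labels name. For E70_1 and E70_3 the number of pooled brains in the labels (2 and 1) differs from that in the study's library table. Only E60 and E70 whole cells have replicate libraries, and a library counts here as 1 sample whatever its number of cells. The labels do not say whether the replicates came from separate litters, so p-values measure the spread between these libraries.

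Immediate early genes are transcribed within minutes of a stimulus, from factors that are already present in the cell, and need no new protein. FOS, FOSB and JUNB are subunits of the AP-1 transcription factor, EGR1 is a zinc finger factor, IER2 is a short-lived nuclear protein, ATF3 is a stress-responsive factor of the ATF/CREB family, and DUSP1 is a phosphatase that switches MAP kinases off again. In the brain they are known as markers of recent neuronal activity, and they are also known to be induced by growth factors, injury and the handling of living tissue.

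Windows from the start regions of 5 of the 7 genes are shown because they match elements of known activators of immediate early genes: the CArG box is bound by serum response factor, TGACGT by the CREB and ATF factors, and GCGNGGGCG by the EGR factors. Each 30-base window lies within 500 bases before a transcript start of the RefSeq annotation of Sscrofa11.1, is written on the strand of the gene, and has the motif in capitals.
FOS, CArG box: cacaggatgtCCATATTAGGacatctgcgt
IER2, CArG box: gggttcctgtCCTTATATGGgcagccggaa
FOS, TGACGT: ggtagcgctccgTGACGTattgggctcatt
ATF3, TGACGT: attaatagcattACGTCAgcccgggactgg
DUSP1, TGACGT, near: cggcagggcgggTGACGTcaccacaccggt
DUSP1, TGACGT, far: ctcagaggccgaTGACGTcttcccctttgg
EGR1, GCGNGGGCG: gactcgccttCGCCCCCGCcccgggcccgg

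The FOS gene model spans chr7:98449508-98451971 on the plus strand and begins at the coding sequence, so its CArG box (chr7:98449042-98449071, 456 bases before the start) and its TGACGT (205 bases before) are counted from there. The IER2 CArG box lies at chr2:65912681-65912710 on the minus strand, 209 bases before the start. The ATF3 window lies at chr9:130785576-130785605 on the minus strand, 87 bases before 1 of 4 annotated starts. The DUSP1 windows lie at chr16:51457860-51457889 and chr16:51457812-51457841, and the near TGACGT overlaps its own reverse complement. The EGR1 window lies at chr2:140440791-140440820. Searched on both strands in the same 500 bases of 19535 genes, a CArG box was found for 4.17%, TGACGT for 14.0%, GCGNGGGCG for 17.2%, the AP-1 motif TGANTCA for 16.0% and TATAAA for 27.5%. FOS, IER2, ATF3 and DUSP1 hold TGACGT in this window. FOSB matched TATAAA alone and JUNB none of the 5 motifs. No member holds TGANTCA there. A match of letters is a description of the window and not evidence of binding.

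FOS, EGR1 and DUSP1 had at least 3 UMIs in all 10 libraries, and ATF3 had that many in every whole cell library and 2 UMIs in each nuclei library. FOSB had at most 71 UMIs in a library, JUNB at most 97 and IER2 at most 16. Levels are given as counts of unique molecular identifiers (UMIs) scaled to the total of the library (CPM), and since reads are counted at the 3′ end, levels of different genes are not ranked. FOS reached 198 CPM in E50_1. In E60_1, E60_2 and E60_3 it was at 111, 215 and 722 CPM, and in E70_1, E70_2 and E70_3 at 173, 72.1 and 654 CPM. Adult whole cells held 1266 CPM. The nuclei held 0.971 CPM (3 UMIs) at E70 and 7.28 CPM (17 UMIs) in the adult, below every whole cell library. The third library of each fetal stage stood far above the others, which gives FOS a wide spread within a stage (349 ± 327 CPM at E60 and 300 ± 311 CPM at E70, SD, n = 3).

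EGR1 was at 74.3 CPM in E50_1, at 47.9, 79.3 and 165 CPM in the 3 E60 libraries and at 92.3, 30.9 and 116 CPM in the 3 E70 libraries. Adult whole cells held 257 CPM of EGR1. Both nuclei libraries retained it, with 22.3 CPM (69 UMIs) at E70 and 24.0 CPM (56 UMIs) in the adult, close to the lowest whole cell library.

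ATF3 was at 81.9 CPM in E50_1, at 46.7, 36.9 and 80.4 CPM at E60, at 59.4, 16.8 and 44.7 CPM at E70 and at 614 CPM in adult whole cells. Each nuclei library held 2 UMIs of ATF3. DUSP1 was at 81.8 CPM in E50_1, at 94.3, 181 and 79.5 CPM at E60, at 56.5, 36.3 and 47.8 CPM at E70 and at 419 CPM in adult whole cells. It held 5 UMIs (1.62 CPM) in the E70 nuclei and 18 UMIs (7.70 CPM) in the adult nuclei. For both genes Adult_1 was the highest library, and both nuclei libraries lay below every whole cell library, as for FOS. The share of all genes that separate in this way is not given here. In the fit below, 19.4% of all genes tested were lower in nuclei.

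FOSB ranged from 0.0393 to 2.48 CPM in the fetal whole cell libraries and reached 6.06 CPM in Adult_1. JUNB ranged from 0.0718 to 1.11 CPM and reached 13.4 CPM in Adult_1. IER2 was listed at 0 in E70_2 and reached no more than 0.826 CPM in any library. No UMI of these 3 genes was found in the nuclei, where 3 UMIs would have made 0.971 CPM at E70 and 1.28 CPM in the adult. Their absence from nuclei at E70 could therefore not be told from the level in whole cells at this depth.

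**Figure D1:**
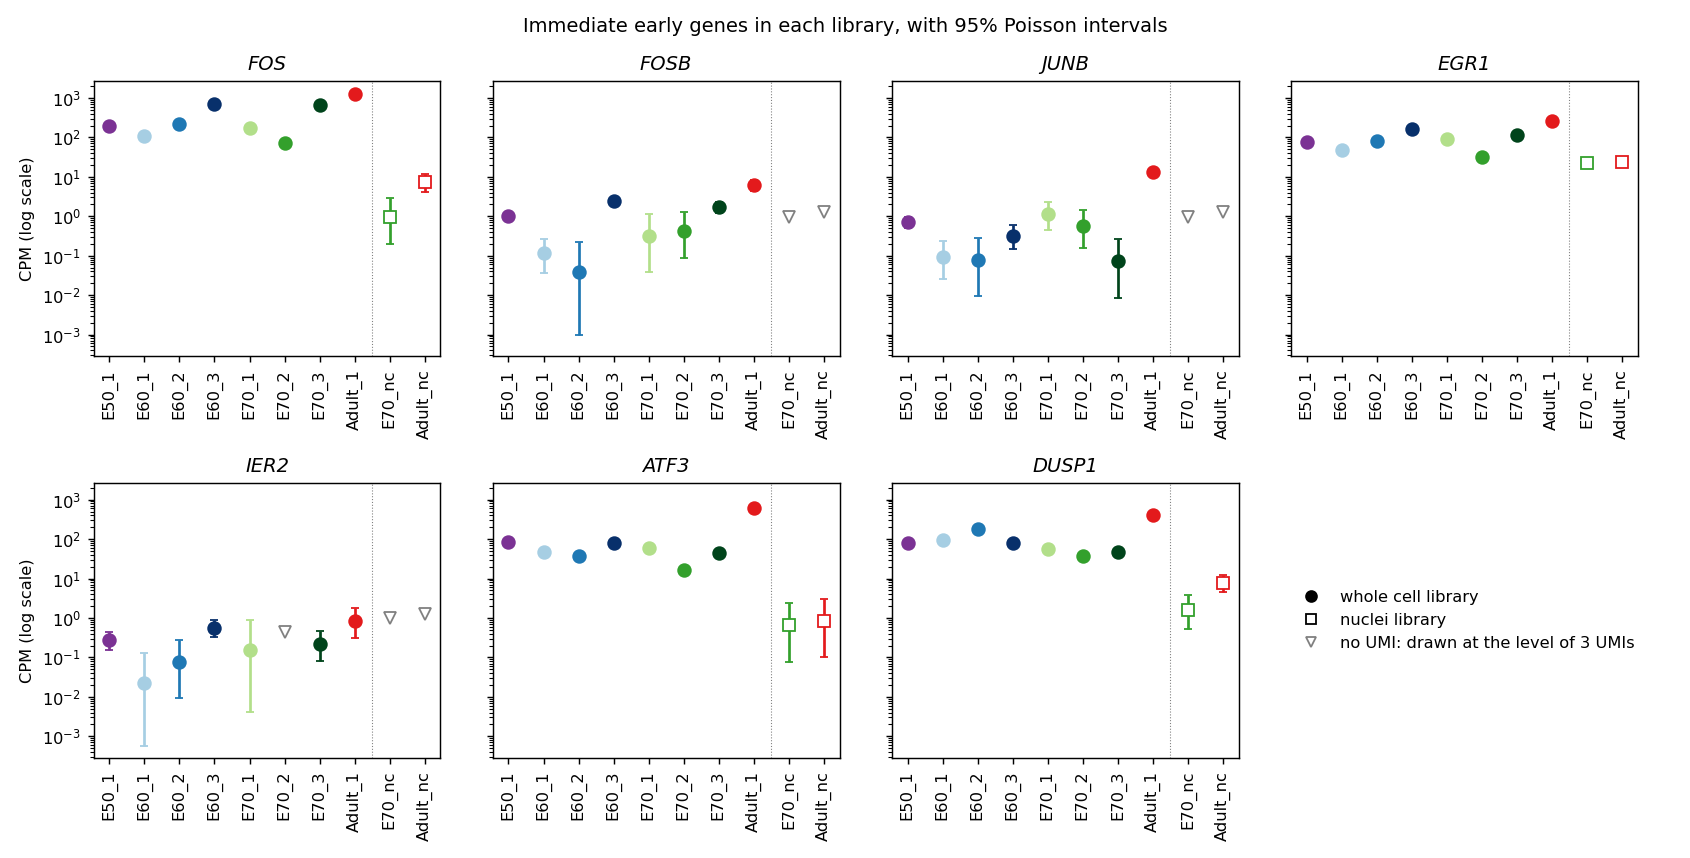
Level of each immediate early gene in the 10 libraries (vertical axes, CPM; whole cells and nuclei marked apart, bars are 95% Poisson intervals that cover counting error only). Adult_1 is highest for FOS, EGR1, ATF3 and DUSP1, and the nuclei are lowest.

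The libraries also differed in other measures, several of which set the nuclei apart from the whole cells. The median number of UMIs was 690 in Adult_nc and 2616 in E70_nc, against 4251 to 9403 in the whole cell libraries, and total UMIs ran from 2336865 (Adult_nc) to 55755512 (E50_1). Mitochondrial transcripts made up 0.0633% and 0.0875% of the UMIs in nuclei and 0.835% to 2.70% in whole cells, and the 11 heat shock genes found summed to 935 and 987 CPM against 4169 to 8660 CPM. Hemoglobin transcripts, of red blood cells, made up 0.979% to 6.07% in whole cells and at most 0.000727% in nuclei. By the number in the study's library table, read here as a sequencing pool, E60_3 and E70_3 were run together, as were the nuclei libraries, so that pool and fraction cannot be told apart. At most 57 cell barcodes were shared by any of the 45 pairs of libraries. The part of depth, RNA quality and pool in the levels below was not tested.

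To ask how nuclei differ from whole cells, UMIs were summed over all cells of a library and fitted with edgeR's quasi-likelihood test, with stage and fraction as terms and p-values adjusted over all genes by the Benjamini-Hochberg method. Sums over a library cannot tell fewer cells of a type from less RNA per cell. FOS, ATF3, DUSP1, EGR1 and JUNB were lower in nuclei (adjusted p under 0.05), which is 5 of the 7 members, where 19.4% of the 17655 genes tested were lower and 4.58% were higher. FOS changed by -8.16 on the log2 scale (SE 1.36, adjusted p = 0.0037). ATF3 changed by -8.46 (SE 0.96, adjusted p = 0.0012) and DUSP1 by -5.71 (SE 0.65, adjusted p = 0.0012). EGR1 changed by -2.80 (SE 0.67, adjusted p = 0.016). For JUNB the adjusted p was 0.032, and with no UMI in nuclei its fitted change is no estimate of size. FOSB (adjusted p = 0.14) and IER2 (0.29) were not called. With the 3 genes at 0 in nuclei set to the bound that 3 UMIs allow, the median over the 7 members was -2.80, and that over all genes was -0.31.

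At matched stages, FOS was 309-fold lower in nuclei than in the mean of the 3 E70 whole cell libraries (95% counting interval 106 to 1500) and 174-fold lower in the adult (109 to 299). ATF3 was 62.3-fold (17.2 to 514) and 717-fold (198 to 5920) lower, and DUSP1 29.0-fold (12.4 to 89.2) and 54.4-fold (34.4 to 91.7) lower. EGR1 was 3.57-fold (2.82 to 4.59) lower at E70 and 10.7-fold (8.27 to 14.2) lower in the adult. In the adult, JUNB was at least 10.4-fold and FOSB at least 4.72-fold lower. These ratios are over all cells. Adult_1 held 69 endothelial-like and 52 mural-like cells among 737, and Adult_nc 3 and 1 among 2552. ATF3 was at 1522 and 1563 CPM in these 2 classes of Adult_1. The part of composition in the ratios was not tested. Whether the difference between fractions itself differed between the adult and E70 was tested as an interaction in the same kind of fit: no gene passed (0% of 17655), with 887 genes at an unadjusted p under 0.05 and 50 by DESeq2. ATF3 had an interaction of -3.55 (adjusted p = 0.99).

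ATF3 and DUSP1 kept their calls in all 13 alternatives. FOS lost its call without E70_nc (-7.77, adjusted p = 0.075). EGR1 lost it without Adult_1 (-2.04, adjusted p = 0.17), Adult_nc (-2.03, 0.18) or E70_nc (-3.75, 0.086), and JUNB lost it without Adult_1, Adult_nc, E70_2 or E70_nc. FOSB passed with DESeq2 (adjusted p = 0.038) and without E60_3.

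**Figure D2:**
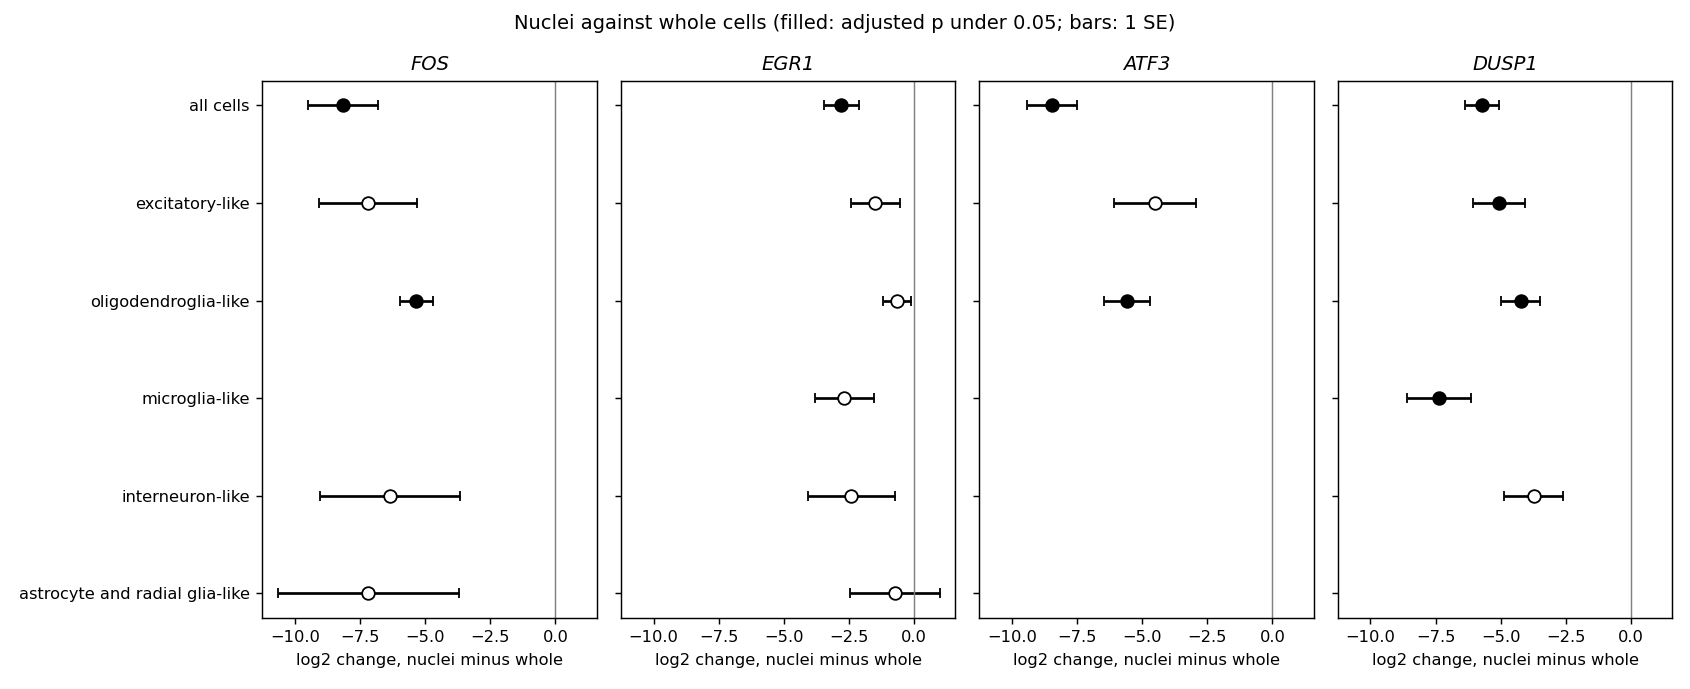
Fitted log2 change of FOS, EGR1, ATF3 and DUSP1 between nuclei and whole cells (horizontal axes), over all cells and within cell classes; bars are 1 SE, filled points have an adjusted p under 0.05, and no point is drawn where the nuclei held no UMI. FOS, ATF3 and DUSP1 lie between -3.74 and -8.46, and EGR1 between -0.66 and -2.80.

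Since nuclei and whole cell libraries hold different cells, the same test was run within cell classes, which were rebuilt by clustering without the members and named X-like from their markers. Excitatory-like cells carry TBR1 and SLC17A7, interneuron-like cells GAD1 and GAD2, and oligodendroglia-like cells SOX10 and PDGFRA. Microglia-like cells carry CSF1R and P2RY12, and astrocyte and radial glia-like cells AQP4 and SLC1A3. Other markers of a class could be absent. Interneuron-like cells had DLX2, DLX5 and DLX6 at 0 in E60_2, DLX2 and DLX6 in E60_1, and DLX2 and DLX5 in Adult_nc. In E70_nc they had SLC32A1 and DLX2 at 0. OLIG2 was at 0 in oligodendroglia-like cells of E60_1, E60_2 and both nuclei libraries. Between 0.353% and 24.4% of the cells of a library stayed unnamed. Oligodendroglia-like cells gave the smallest adjusted p-values of these classes. In Adult_1 they held 100 CPM of FOS, 53.8 CPM of ATF3 and 57.7 CPM of DUSP1. The 1931 adult nuclei of this class held 3.67, 1.23 and 3.67 CPM. Erythroid-like cells of Adult_1, taken below as the background, held 60.5 CPM of FOS, 33.6 CPM of ATF3 and 47.1 CPM of DUSP1. With hemoglobin genes left out of the total these were 101, 56.2 and 78.6 CPM. The part of background in the whole cell levels of this class was not tested. FOS (-5.34, SE 0.63, adjusted p = 3.3e-15), ATF3 (-5.59, SE 0.89, adjusted p = 1.1e-08) and DUSP1 (-4.24, SE 0.74, adjusted p = 2.3e-07) were lower, 3 of the 4 members tested in a class where 22.5% of genes were lower. This fit has 7 library sums and 2 residual degrees of freedom, so the size of these p-values is not read as strength. EGR1 was at 15.3 CPM in the adult nuclei of this class and 13.3 CPM in its Adult_1 cells (fitted change -0.66, SE 0.54, adjusted p = 0.37). Erythroid-like cells of Adult_1 held 13.4 CPM of EGR1, so the whole cell level of EGR1 in this class was not above the background. ATF3 and DUSP1 lost their calls without Adult_1 or Adult_nc, whose removal left the 25 E70 nuclei of this class, in which CLDN11, OLIG2, MOG and MAG were at 0.

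In microglia-like cells, FOS was at 1559 CPM in Adult_1 and had no UMI in the 315 adult nuclei, which makes it at least 105-fold lower. ATF3 was at 795 CPM against 0 (at least 53.3-fold lower), and DUSP1 at 635 against 4.97 CPM (1 UMI, ratio 128, counting interval 22.9 to 5050). FOS (adjusted p = 0.028), ATF3 (0.030) and DUSP1 (-7.37, SE 1.21, adjusted p = 0.033) passed, 3 of 5 members tested where 0.305% of genes were lower. EGR1 was at 72.7 CPM in whole cells and 14.9 CPM (3 UMIs) in nuclei and did not pass (-2.68, SE 1.13, adjusted p = 0.37). JUNB did not pass either. The E70 nuclei had 6 cells of this class and were not used, so that the fit sets 1 library of nuclei (Adult_nc) against 1 of whole cells (Adult_1), with the spread taken from the fetal libraries. All 3 calls were lost without E70_1 or E70_2, each of which adds 20 microglia-like cells, with at least 50 cells, and without high-UMI cells.

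Adult_1 held 0 excitatory-like cells, so the comparison in this class rests on the E70 nuclei alone, and 259 of the 496 excitatory-like E70 nuclei fell in 1 cluster that holds 0, 0 and 3 cells of E70_1, E70_2 and E70_3. In excitatory-like cells DUSP1 was lower (-5.08, SE 1.00, adjusted p = 0.049), 1 of 4 members tested where 4.28% of genes were lower. This call was lost without E50_1, E60_3 or E70_1, without batch correction and without high-UMI cells. FOS held 92.1, 34.4 and 279 CPM in the excitatory-like cells of E70_1, E70_2 and E70_3 and 0.916 CPM (2 UMIs) in the 496 E70 nuclei, a ratio of 147 (40.8 to 1220), and did not pass with edgeR (adjusted p = 0.079). FOS passed with DESeq2 (-7.44, adjusted p = 4.0e-06), without E70_2 (-7.88) and without E70_3 (-6.00). ATF3 also passed without E70_2 or E70_3, and EGR1 without E70_3 (-1.05). The full fit has 7 library sums and 2 residual degrees of freedom, and a fit without a library has fewer. The p-values of fits without a library are therefore not given for these 3 genes. EGR1 held 40.0, 9.38 and 42.6 CPM against 11 CPM in nuclei (-1.48, SE 0.94, adjusted p = 0.36), so the nuclei lay within the range of the whole cells. In interneuron-like cells 0 of 4 members passed with edgeR (3 at an unadjusted p under 0.05), where 9.02% of genes were lower. FOS, ATF3 and DUSP1 passed there with DESeq2 (adjusted p of 0.015, 0.017 and 0.028), and all 4 members passed without E60_3. Of the 34 interneuron-like cells of Adult_1, 33 fell in 1 cluster that holds 0 of the 77 adult nuclei of this class, so the adult part of this comparison is between different clusters.

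In astrocyte and radial glia-like cells 0 of 5 members passed with edgeR (1 at an unadjusted p under 0.05, and 1 with DESeq2), where 11.4% of genes were lower. FOS was at 73.9, 44.3 and 1326 CPM in the E70 whole cell libraries and had no UMI in the 109 E70 nuclei (at least 34.0-fold below their mean). EGR1 reached 89.7 CPM (19 UMIs) in the same nuclei, above E70_1 (29.6 CPM) and E70_2 (13.6 CPM) and below E70_3 (224 CPM). These nuclei thus held EGR1 at the mean level of whole cells (ratio 0.993, 0.636 to 1.65) while FOS, ATF3 and DUSP1 were at 0. For ATF3 and DUSP1 the bounds were only 2.81-fold and 1.71-fold below the mean of whole cells. The lowest whole cell library held 7.23 CPM of ATF3 and 9.03 CPM of DUSP1. The 0 of these 2 genes therefore says little at this depth. The difference between genes was not tested.

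Among whole cells, FOS, EGR1, ATF3 and DUSP1 were higher in both vascular classes, endothelial-like and mural-like cells, than in neurons. In the 6 whole cell libraries with at least 20 endothelial-like cells, which line the vessels and carry PECAM1 and KDR, FOS was at 446 CPM in E50_1, 485, 442 and 629 CPM in E60_1 to E60_3, 617 CPM in E70_3 and 2518 CPM in Adult_1. Neurons (excitatory-like and interneuron-like) of these libraries held 142, 5.79, 11.5, 528, 318 and 103 CPM. Endothelial-like cells were above the neurons in 6 of 6 libraries. In the fetal libraries their level lay between 442 and 629 CPM, while that of neurons ran from the level of background to near the endothelial one. The neurons differed in kind between these libraries: E60_1 and E60_2 held 2 and 0 excitatory-like cells, and E60_3 held 1368 among its 1634 neurons. The interneuron-like cells of E60_1 and E60_2 also lay mostly in 1 cluster (577 of 722 and 77 of 111) that holds 1 of the 266 of E60_3. Both had DLX2 and DLX6 at 0. Their interneuron markers summed to 209 and 191 CPM, against 1066 CPM in E60_3. Each test against neurons below includes this difference.

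Erythroid-like cells, red blood cells that should lack these transcripts, give that background: their FOS level was 4.42 to 60.5 CPM (median 5103 UMIs per cell, against 8532 in endothelial-like cells and 6916 in neurons). The neurons of E60_1 and E60_2 were therefore at background for FOS. In Adult_1, which held the highest erythroid-like level, the neurons were at 103 CPM of FOS. There the erythroid-like cells reached 101 CPM with hemoglobin genes left out of the total. ATF3 in endothelial-like cells ranged from 76.5 to 1522 CPM (median 199) and from 1.10 to 34.2 CPM (median 15.8) in neurons. DUSP1 in endothelial-like cells ranged from 269 to 1009 CPM. EGR1 ranged from 108 to 552 CPM there, against 4.30 to 74.3 CPM in neurons.

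Set against neurons of the same library (edgeR, library and class as terms), endothelial-like cells were higher for 6 of the 6 members tested, where 23.0% of genes were higher and 26.2% lower. ATF3 was higher by 4.67 on the log2 scale (SE 0.45, adjusted p = 5.7e-06), DUSP1 by 3.85 (SE 0.42, adjusted p = 1.5e-05), EGR1 by 3.20 (SE 0.57, adjusted p = 0.00058) and FOS by 3.06 (SE 0.81, adjusted p = 0.0079). FOSB (2.90, SE 0.69, adjusted p = 0.0043) and JUNB (2.68, SE 0.63, adjusted p = 0.0040) were higher as well. IER2 was too low to be tested. FOS, EGR1, ATF3 and DUSP1 kept their calls in all 12 alternatives. FOSB could be tested in 9 of them and JUNB in 7, and both kept their calls in these. JUNB was above the neurons in 4 of 6 libraries, with a median of 0.276 CPM and 32.8 CPM in Adult_1.

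Mural-like cells, the contractile cells around vessels with PDGFRB and RGS5, were measured in 4 libraries. FOS was at 247 CPM in E50_1, 37.0 and 24.1 CPM in E60_1 and E60_2, and 4458 CPM in Adult_1, the highest value of any class. FOS (2.49, SE 0.78, adjusted p = 0.041), EGR1 (3.10, SE 0.64, adjusted p = 0.0074), ATF3 (4.15, SE 0.49, adjusted p = 0.00066) and DUSP1 (1.59, SE 0.35, adjusted p = 0.011) were higher than in neurons, 4 of 4 tested, where 15.6% of genes were higher. FOS lost its call without E60_1 or E60_2 and at resolution 0.8, and DUSP1 without E60_1. Fibroblast-like cells, with COL1A1 and DCN, held FOS at 218 to 986 CPM in 4 fetal libraries. The 116 adult nuclei placed in this class had LUM at 0 and a summed marker level of 214 CPM, against 7104 to 27250 CPM in fetal cells, and are not used.

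Microglia-like cells were higher than neurons for 4 of 5 members tested, where 20.5% of genes were higher and 26.9% lower. ATF3 (3.65, SE 0.38, adjusted p = 2.7e-06), DUSP1 (2.55, SE 0.31, adjusted p = 1.1e-05) and EGR1 (1.36, SE 0.28, adjusted p = 0.0011) passed in all alternatives. JUNB passed (2.02, SE 0.71, adjusted p = 0.033) but not with DESeq2, without E50_1, E60_3 or E70_1, or without high-UMI cells. FOS was at 52.1 to 299 CPM in microglia-like cells of the 7 fetal libraries and at 1559 CPM in Adult_1, above the neurons in 6 of 8 libraries, and did not pass with edgeR (1.29, SE 0.57, adjusted p = 0.075). It passed with DESeq2 (1.40, adjusted p = 0.013), without E60_3 and without E70_3.

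Astrocyte and radial glia-like cells were higher for 2 of 5 members tested, where 18.1% of genes were higher. ATF3 was higher by 1.70 (SE 0.33, adjusted p = 0.0021) and EGR1 by 1.03 (SE 0.34, adjusted p = 0.033), the latter not without E50_1, E60_2, E60_3 or E70_3. FOS (0.85, SE 0.33, adjusted p = 0.066) and DUSP1 (0.10, SE 0.20, adjusted p = 0.76) did not pass. FOS passed in 5 of 14 alternatives: DESeq2 (adjusted p = 0.040), without Adult_1 (0.038), without E70_1 (0.022), no batch correction (0.021) and at least 50 cells (0.0086). In oligodendroglia-like cells 0 of 4 members passed with edgeR, where 8.80% of genes were higher, with FOS at 0.92 (SE 0.32, adjusted p = 0.072). FOS was the 1 member there at an unadjusted p under 0.05, and passed with DESeq2, without Adult_1, without batch correction and with at least 50 cells. EGR1 passed under the last 3 of these (adjusted p of 0.0096, 0.0087 and 0.0096), and ATF3 without batch correction (0.022). Ordered by the median over libraries, FOS ran from fibroblast-like (715 CPM) and endothelial-like (551 CPM) over microglia-like (177), excitatory-like (167), mural-like (142), interneuron-like (102), oligodendroglia-like (100) and astrocyte and radial glia-like cells (85.8) to erythroid-like cells (18.2 CPM). The ranges of all neighbours in this order overlap, and the medians are over different sets of libraries.

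**Figure D3:**
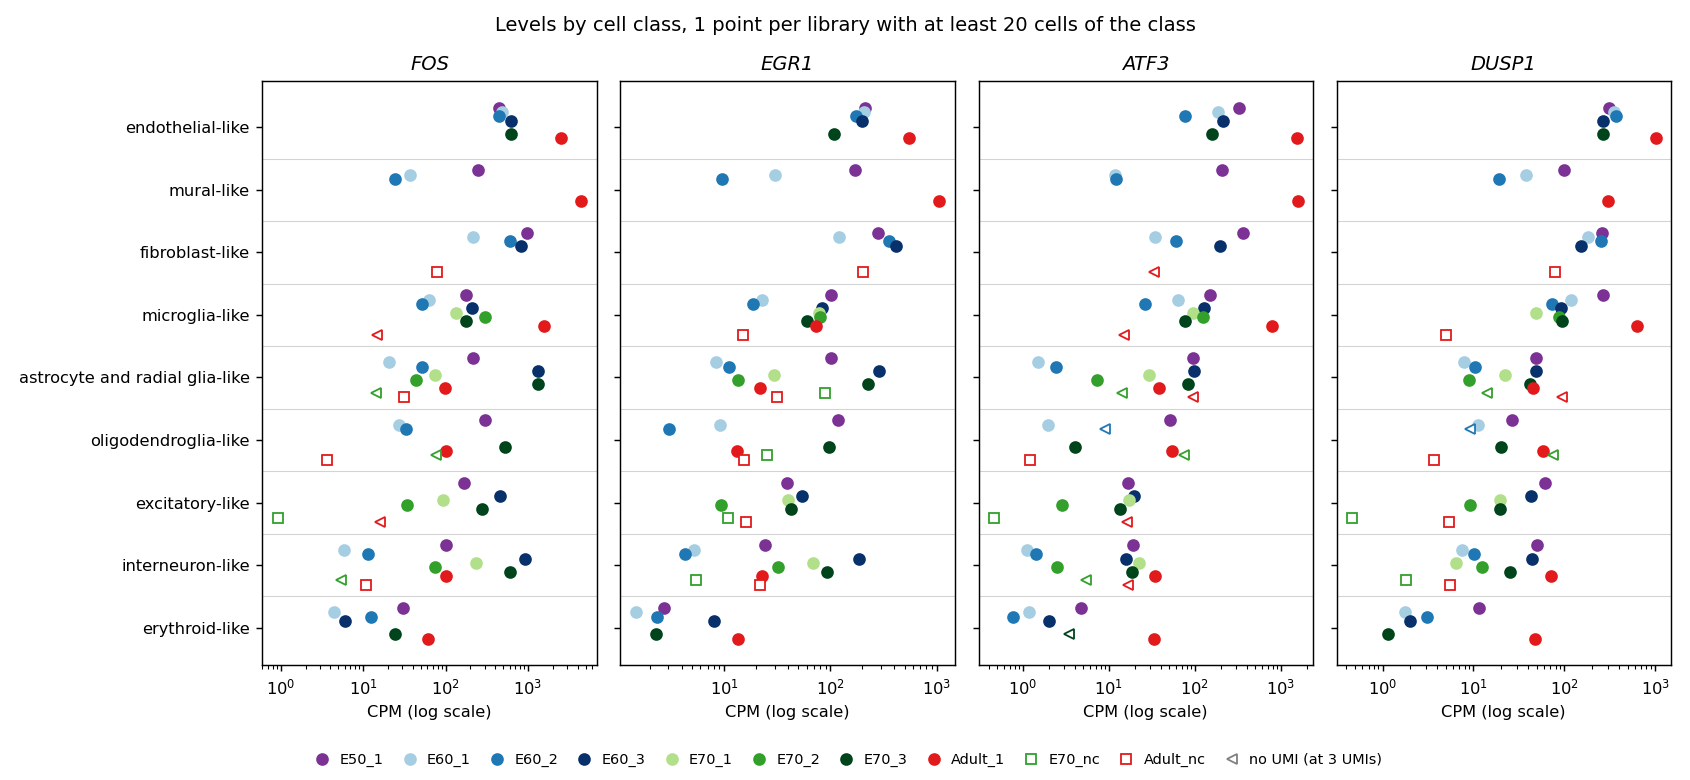
Level of FOS, EGR1, ATF3 and DUSP1 (CPM, log scale) by cell class in each library with at least 20 cells of the class. Endothelial-like cells are above the neurons in 6 of 6 libraries. For FOS and EGR1, astrocyte and radial glia-like cells of E60_3 and E70_3 stand far above those of the other libraries of their stage.

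**Figure D4:**
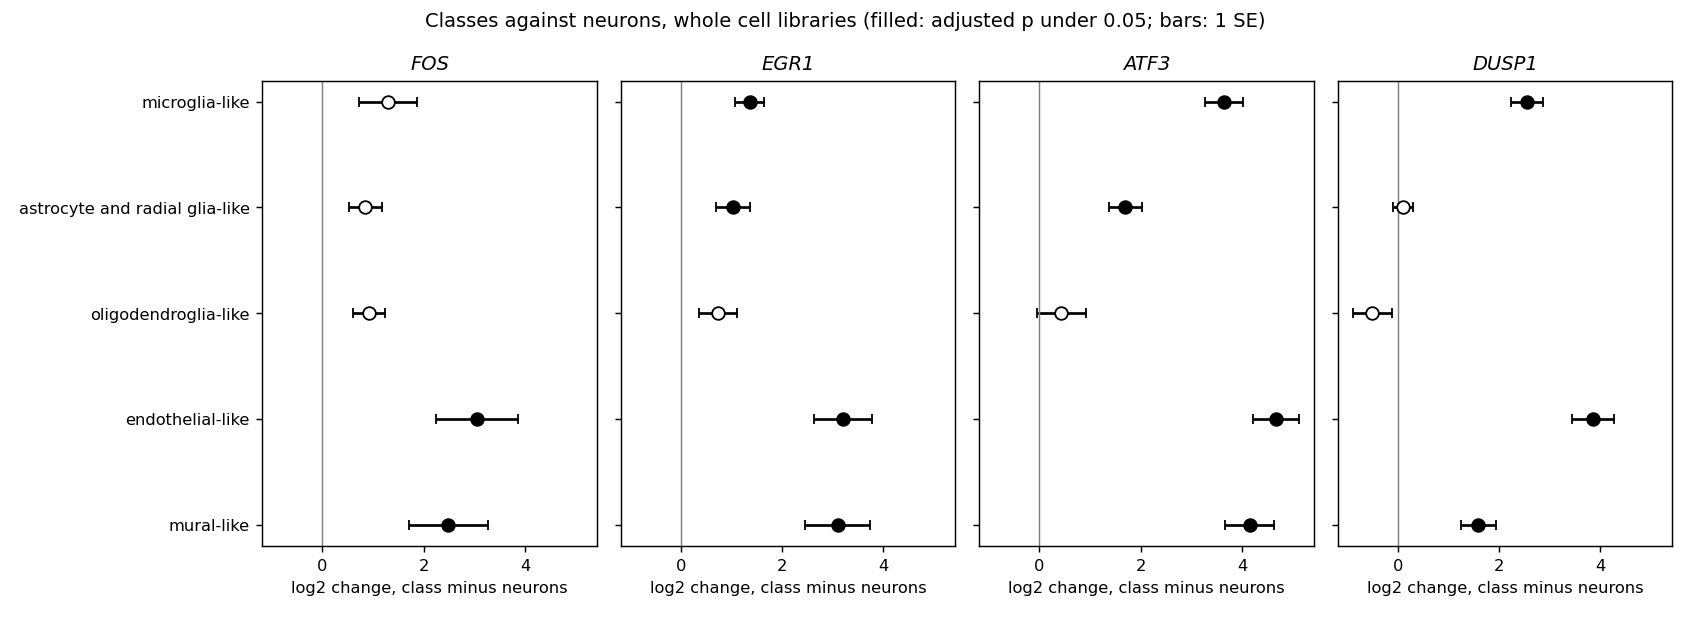
Fitted log2 change of FOS, EGR1, ATF3 and DUSP1 between each class and neurons in whole cell libraries (horizontal axes; bars are 1 SE, filled points have an adjusted p under 0.05). All 4 genes are filled for endothelial-like and mural-like cells, and none for oligodendroglia-like cells.

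FOS was also counted in single cells after each was thinned to 1000 UMIs, and Adult_1, E60_3 and E70_3 again held the largest shares. FOS was found in 39.1% of the cells of Adult_1 (95% Clopper-Pearson interval 35.5 to 42.7), 36.1% in E60_3, 32.6% in E70_3, 13.5% in E50_1 and 5.67% to 11% in the other whole cell libraries. E60_2 lay above E50_1 and E70_1 by CPM but below both by this share (10.3%), so no order is read among these libraries. It was found in 0.240% of the E70 nuclei and 0.678% of the adult nuclei. Without thinning the shares were 73.4% in Adult_1, 79.4% in E60_3, 0.350% in E70_nc and 0.627% in Adult_nc. Nuclei below that depth, 1962 (76.9%) in Adult_nc and 25 in E70_nc, were not counted. In Adult_1 73.9% of endothelial-like and 88.5% of mural-like cells held FOS, and the share in erythroid-like cells was 0% to 3.14% over libraries. At least 2 of FOS, EGR1, ATF3 and DUSP1 were found together in 28.9% of the cells of Adult_1 and in 72.5% of its endothelial-like cells. The intervals cover counting error only.

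Library 3 of both E60 and E70 differed from their replicates in some classes and not in others. In astrocyte and radial glia-like cells FOS was at 20.9 and 52.5 CPM in E60_1 and E60_2 and at 1328 CPM in E60_3, and at 73.9 and 44.3 CPM in E70_1 and E70_2 and at 1326 CPM in E70_3. EGR1 in these cells was at 8.36, 11.05 and 287 CPM at E60 and at 29.6, 13.6 and 224 CPM at E70. Different clusters make up this class in the E60 libraries: 1 cluster holds 224 of the 394 cells in E60_3 and 8 and 10 cells in E60_1 and E60_2, and another holds 844 and 411 cells in E60_1 and E60_2 and 1 cell in E60_3. In E70_1, E70_2 and E70_3 the first of these holds 15 of 34, 33 of 61 and 246 of 480 cells. The third library was 36.2 and 22.4 times the mean of the other two for FOS, and 29.6 and 10.4 times for EGR1. In endothelial-like cells of E60 the ratio for FOS was 1.36, in microglia-like cells 3.67 at E60 and 0.827 at E70, and in erythroid-like cells of E60 0.714. DUSP1 in the astrocyte and radial glia-like class had ratios of 5.37 and 2.65, with 4.99 and 2.71 in interneuron-like cells, 0.744 in endothelial-like cells of E60, and 0.579 and 1.03 over all cells. Since E60_3 and E70_3 were noticed for their FOS level, these ratios are a description, and the libraries also differ in composition: neurons made up 60.6% of E60_3 but 8.86% of E60_1 and 3.19% of E60_2.

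The only stages with replicates, E60 and E70, were compared by the same fit. No gene passed (0% of 16743 tested) with edgeR, although 4916 genes had an unadjusted p under 0.05 and DESeq2 called 2833. Of the 5 members tested, DUSP1 had the smallest p and was the 1 at an unadjusted p under 0.05. It was at 118 ± 54.5 CPM at E60 and 46.9 ± 10.2 CPM at E70 (SD, n = 3), a difference of -1.60 (SE 0.43, adjusted p = 0.12) that did not pass. An exact two-sided permutation test gave p = 0.1, the smallest p that 3 against 3 libraries allow. DUSP1 passed with DESeq2 (-1.57, adjusted p = 0.014), without E60_3 (-1.89, 0.019) and without E60_3 and E70_3 together (-1.85, 0.013), the last chosen after seeing the data. FOSB also passed without E60_3 (3.15, adjusted p = 0.046). FOS (-0.31, SE 0.87, adjusted p = 0.81; exact permutation p = 0.7), EGR1 (-0.44, SE 0.54, adjusted p = 0.58; 0.7) and ATF3 (-0.62, SE 0.44, adjusted p = 0.35; 0.5) overlapped between stages. Within microglia-like cells no member passed (0.0178% of 11254 genes, 2 genes, and 720 by DESeq2), nor within astrocyte and radial glia-like cells (0% of 14218, with 2741 genes at an unadjusted p under 0.05 and 940 by DESeq2).

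Between the adult and E70, in the fit that holds fraction fixed, ATF3 (3.36, SE 0.59, adjusted p = 0.024) and DUSP1 (2.71, SE 0.46, adjusted p = 0.021) were higher in the adult, 2 of 7 members, where 2.29% of genes were higher and 0.476% lower. FOS (2.06, SE 0.92, adjusted p = 0.28), EGR1 (0.92, SE 0.56, adjusted p = 0.46) and JUNB (4.49, SE 1.09, adjusted p = 0.071) did not pass with edgeR, and JUNB passed with DESeq2 (adjusted p = 0.023) and without E60_3 (0.048). Both calls rest on Adult_1: without it ATF3 was at 0.10 (adjusted p = 1.0) and DUSP1 at 1.94 (adjusted p = 0.62). ATF3 also lost its call without E70_1, E70_2 or E70_3, and DUSP1 without any of these, Adult_nc or E70_nc. Microglia-like cells made up 34.3% of Adult_1 and 3.24% to 4.06% of the E70 whole cell libraries, and the part of composition was not tested. Within microglia-like cells ATF3 was at 795 CPM in Adult_1 and at 94.96, 123 and 77.8 CPM at E70.

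Other genes of the pathway were taken from lists that do not include the members. Their counts in nuclei stand beside 19.4% of all genes lower and 4.58% higher. In nuclei, the 12 other rapid-response factors tested held 8 lower and 0 higher genes, among them KLF2 (-7.53, SE 0.78, adjusted p = 0.0011), a factor of the vessel wall, and the median of the list was -3.71. Of 19 feedback regulators, which like DUSP1 limit signalling or RNA lifetime, 13 were lower, among them GADD45A (adjusted p = 0.0021) and GADD45G (0.040), with 1 and 0 UMIs in nuclei, and the list had a median of -3.86 with genes at 0 in nuclei set to their bound. Of 6 other AP-1 and EGR factors 3 were lower, among them MAFF (-5.44, SE 0.88, adjusted p = 0.0033), with a median of -1.84. All 11 heat shock genes were lower, with the chaperone DNAJB1 at -7.89 (SE 0.70, adjusted p = 0.00062) and a list median of -3.32. Of 10 secreted rapid-response genes 5 were lower (median -4.15 at the bound).

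Of 10 activity-regulated effectors 4 were lower and 1 was higher (median -2.24 at the bound). The higher gene was BDNF, a neurotrophin, at 45 CPM in E70_nc against 7.44, 3.74 and 10.2 CPM in E70_1, E70_2 and E70_3, and at 17.1 against 5.37 CPM in the adult (1.92, SE 0.52, adjusted p = 0.026). RGS2, an inhibitor of G protein signalling in the same list, was lower (-5.34, SE 0.67, adjusted p = 0.0015). The 15 upstream kinases and factors, which are present before a stimulus, held 2 lower genes, MAPK3 (-4.78, SE 0.58, adjusted p = 0.0014) and MAP2K2 (-1.90, SE 0.45, adjusted p = 0.016), and had a median of -0.28, near that of all genes.

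In endothelial-like cells against neurons, 4 of 4 other AP-1 and EGR factors, 10 of 11 other rapid-response factors, 14 of 19 feedback regulators, 5 of 7 secreted genes, 5 of 9 activity-regulated effectors, 5 of 11 heat shock genes and 11 of 15 upstream genes were higher, where 23.0% of all genes were higher and 26.2% lower. KLF2 (6.26, SE 0.34, adjusted p = 1.3e-07), KLF4 (6.07, SE 0.39, adjusted p = 3.2e-07) and the AP-1 partner MAFF (4.95, SE 0.36, adjusted p = 6.9e-07) were among them, and KLF2 and KLF4 are also known as endothelial factors at rest. NPAS4, a factor that depends on neuronal activity, was lower (-3.78, SE 0.68, adjusted p = 0.0011), as were NRN1, BDNF and HSP90AB1. The medians ran from 1.03 for upstream genes to 3.66 for AP-1 and EGR factors, against -0.10 over all genes.

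In microglia-like cells against neurons, 4 of 5 other AP-1 and EGR factors, 7 of 12 rapid-response factors, 13 of 18 feedback regulators, 7 of 9 secreted genes, 6 of 11 heat shock genes and 7 of 15 upstream genes were higher, where 20.5% of all genes were higher and 26.9% lower. The medians ran from -0.72 for activity-regulated effectors to 6.32 for secreted genes, against -0.17 over all genes. Of 9 activity-regulated effectors 2 were higher and 5 lower. TNF, an inflammatory cytokine (8.79, SE 0.57, adjusted p = 3.9e-08), and the feedback gene IER3 (7.29, SE 0.63, adjusted p = 5.3e-07) rose most in their lists.

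The genes whose levels ran most like the mean of the 7 members were ranked over 68 sums of a library and class, among 8330 genes of at least 20 CPM on average, by the correlation of log2(CPM + 10). The first 10 were NR4A1 (r = 0.917), PPP1R15A (0.904), BTG2 (0.884), ZFAND2A (0.873), MAFF (0.863), NFIL3 (0.857), GADD45B (0.847), ENSSSCG00000038406 (0.839), IFRD1 (0.830) and CRY2 (0.819). The sums share libraries and their depth, so the values are a description. NR4A1, an orphan nuclear receptor, was at 257 CPM in Adult_1, 95.4 CPM in E60_3, 78.2 CPM in E70_3, 14.1 to 40.4 CPM in the other whole cell libraries, and 3.56 and 7.70 CPM in the nuclei. PPP1R15A, which reverses the stress block on translation, was at 476 CPM in Adult_1 and 39.0 to 119 CPM in fetal whole cells, and at 1.62 and 0.428 CPM in the nuclei. Among the members themselves, ATF3 ran most closely with DUSP1 (r = 0.895) and FOS with EGR1 (r = 0.853), and IER2 with none above 0.364. IER2 had at most 16 UMIs in a library, so its low values are not read as a different pattern.

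**Figure D5:**
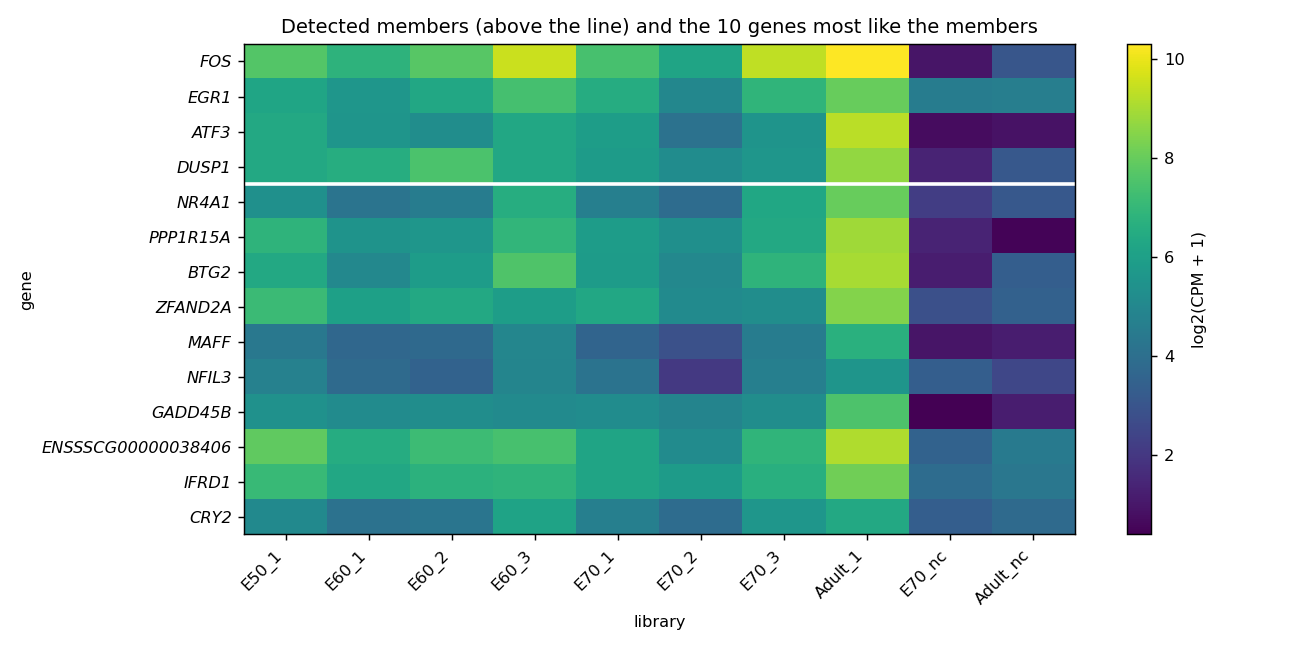
Level of FOS, EGR1, ATF3 and DUSP1 and of the 10 genes most like the members in each library (colour, log2 of CPM + 1). Adult_1 holds the highest values of each gene shown, and the nuclei hold the lowest values of FOS, ATF3 and DUSP1.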

How the data were processed

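Pig MEC cells and nuclei were captured with the 10X Genomics v2 chemistry. The authors mapped the reads with Cell Ranger (version 2.20 in the submitters' processing notes) to Sscrofa11.1, with introns counted, and deposited 1 table of UMI counts per library, before any normalization. No column was left unmapped. All steps from the counts on were made here, with edgeR 4.0.16 and DESeq2 1.42.0 in R 4.3.3 and with Python 3.11.15. The 7 members and the gene lists were chosen with earlier results of these data known.

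For cell classes, counts were scaled to 10000 UMIs per cell and log-transformed, 3000 variable genes were chosen without the 163 members, list genes and markers, and libraries were merged on 50 principal components by mutual nearest neighbours. Louvain clustering (k of 20, resolution 1.6) gave 52 clusters. A cluster was named from its markers; part of the naming rule was set after seeing leading genes, and no doublet caller was run (cells over 2 times the median UMIs of their library were left out as an alternative). UMIs were summed per library, or per library and class with at least 20 cells, and tested with edgeR's quasi-likelihood F test (TMM, filterByExpr, Benjamini-Hochberg over all genes tested, adjusted p under 0.05). Fitted values are log2 changes. Floors are 3 UMIs of the library or class, and intervals are exact at 95%. The genes named are the members, the list genes with the largest passing changes in each direction (at most 2 a list) and the 10 genes most like the members. JUN, JUND, HSPA1A, HSPA1B, CCL3 and IL1B of the lists were not matched by name to a gene of the count files. They were not analysed here. The fits over whole libraries of nuclei against whole cells and of E60 against E70 were tried on simulated counts. The other fits, among them all those with cell classes, were not. Alternatives were DESeq2, no filter on low counts, each library left out, no batch correction, resolution 0.8, at least 50 cells and a replicate block.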

Additional observations from a re-analysis of the deposited data

How the results depend on the processing

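Of the members' changes, 880 values kept their side of the threshold under an alternative, 52 lost a call, 41 gained one, and no called change reversed. Changes that did not pass could turn: FOS ran from -1.61 to 0.56 between E60 and E70 and from -3.02 to 3.59 there within astrocyte and radial glia-like cells, where ATF3 ran from -0.98 to 4.27, and EGR1 ran from -1.14 to 1.34 between fractions in those cells. DESeq2 called 2833 genes between E60 and E70, 1536 between the adult and E70 and 50 in the interaction. Within classes DESeq2 called 1851 (excitatory-like), 2171 (oligodendroglia-like) and 412 (microglia-like) genes between nuclei and whole cells, and 720 (microglia-like) and 940 (astrocyte and radial glia-like) between E60 and E70. Without batch correction the counts between nuclei and whole cells were 352 (excitatory-like), 6429 (oligodendroglia-like), 26 (microglia-like) and 305 (interneuron-like). With no filter on low counts, microglia-like cells gave 169 genes between fractions and 677 between stages. With at least 50 cells, mural-like cells against neurons gave 5498 genes, and the counts between fractions were 0 (microglia-like), 314 (interneuron-like) and 710 (astrocyte and radial glia-like). Without cells over 2 times the median UMIs, chosen after seeing the data, the fractions gave 0 (microglia-like) and 872 (interneuron-like) genes. Between stages in microglia-like cells, resolution 0.8 gave 1 gene, and no batch correction, at least 50 cells and the removal of high-UMI cells gave 0. Without E60_3 and E70_3 together, also chosen after seeing the data, 9236 genes differed between E60 and E70. The causes were not tested.

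Leaving out 1 library at a time gave 708 to 5416 genes between nuclei and whole cells, 0 to 5902 between E60 and E70 and 0 to 1082 between the adult and E70. Against neurons it gave 1088 to 3373 (oligodendroglia-like) and 1581 to 3974 (mural-like) genes. Between fractions within classes it gave 0 to 7125 (excitatory-like), 1171 to 6407 (oligodendroglia-like), 0 to 262 (microglia-like), 23 to 2732 (interneuron-like) and 0 to 1608 (astrocyte and radial glia-like) genes. Between stages it gave 0 to 1232 (microglia-like) and 0 to 1399 (astrocyte and radial glia-like) genes. The counts against neurons of endothelial-like, microglia-like and astrocyte and radial glia-like cells stayed within 1.5 times the reported count.

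With the replicate number as a block between E60 and E70, 0 genes passed. The deviations of same-numbered libraries correlated at -0.171, 0.035 and -0.124, and the labels name no litter, batch or day that a number shares, so the numbers were not taken as pairs. E60_3 and E70_3 also share the number read as a sequencing pool. Low counts limit IER2 in every library, FOSB and JUNB in the nuclei and in some fetal libraries, and every member in the nuclei of small classes. The part of depth in these low counts was not tested.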
